A study of Mus musculus with 2 samples.

Results

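Low-cycling Sertoli nuclei of the fetal mouse testis were described here in RNA and in open chromatin. They were 400 of the 9833 barcodes called as nuclei. Whole testes of E14.5 embryos carrying *Nr5a1-cre* and *Rosa-tdTomato* were profiled with the 10x multiome assay, which reads polyadenylated RNA and transposase-accessible DNA from the same nucleus. The embryos came from *Nr5a1-cre* and *Rosa-tdTomato* parents homozygous for each, so every nucleus shared these alleles and no other genotype, treatment or age was compared. How many embryos were pooled was not stated in the sources read, and a contribution of the transgene to the *Nr5a1* counts was not tested. There was 1 RNA library and 1 ATAC library, so nuclei are not replicates, no test was possible, and intervals below (95%) cover counting error only.

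The members were selected on their own RNA. Of the 9833 barcodes, 7492 had 2000 to 50000 unique molecular identifiers (UMIs, each 1 counted RNA molecule), under 10% mitochondrial UMIs and over 500 transposase cuts at peaks. These were ranked by the share of UMIs from 10 Sertoli genes (*Sox9*, *Amh*, *Dmrt1*, *Aard*, *Sox8*, *Ptgds*, *Col9a3*, *Hsd17b3*, *Fshr* and *Adamts16*), and the first 600 were kept. The 600 were then ranked by the share of 7 genes of proliferating cells (*Mki67*, *Top2a*, *Aspm*, *Knl1*, *Neil3*, *Ckap2l* and *Cenpf*), and the lowest 400 are the members. The other 200 of the 600 and the 6892 outside barcodes are the comparison groups. The values of these 17 genes chose the members, so they are given as a description only.

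Sertoli cells are the supporting cells of the testis cords. In the fetal gonad *Sry* switches on *Sox9* in their precursors, SOX9 with NR5A1 drives *Amh*, and the cells then enclose the germ cells, deposit a basement membrane and send signals to germ, Leydig and endothelial cells. Fetal Sertoli cells divide, and their number before birth helps to set the size of the adult testis. A snapshot at this age therefore holds Sertoli cells in and out of the cell cycle.

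The members had a median of 8830.5 UMIs (2185 to 25843), a median of 3481 genes and a median of 2436 cuts at peaks. The outside barcodes had medians of 8075 UMIs and 3353 cuts, and the median mitochondrial share was 0.916% in members and 1.59% outside. The 10 Sertoli genes took 0.222% to 0.700% of their UMIs, with a median of 0.324%. The last nucleus inside and the first outside the 600 both had 0.221%, the share was still 0.156% at rank 800 and it was 0.0537% at rank 1200. There was thus no gap at the limit, and the outside barcodes are not free of nuclei with Sertoli RNA. On the second ranking the nuclei at ranks 400 and 401 both had 0.0372% of UMIs from the 7 genes. No UMI of those 7 genes was found in 177 members (44.25%) and in 1569 outside barcodes (22.8%).

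The 10 Sertoli genes did not weigh equally in the selection. *Adamts16*, which encodes a secreted protease, gave 33.2% of their UMIs in the members, and *Hsd17b3*, whose enzyme converts androstenedione to testosterone, gave 29.1%. *Sox9* gave 1.59% and *Amh* 2.70%. Each member held UMIs of 2 to 10 of these genes, with a median of 6, against a median of 1 in the 600 outside barcodes richest in germ cell genes (the germ set). All 10 were higher in the members than outside. *Fshr*, the receptor for follicle-stimulating hormone, was at 329 CPM (UMIs per 1000000 UMIs of the same nuclei; 311 to 348) in members, 364 in the other 200 and 16.2 outside. *Amh*, the hormone that makes the Müllerian ducts regress, was at 91.4 CPM in members and 29.97 outside. *Dmrt1* was at 347 CPM in members and 63.0 outside, and at 197 in the germ set, where this factor is also known to act. With each nucleus thinned to 2000 UMIs, *Sox9* RNA was found in 11.75% of members and 0.667% of the germ set, and *Hsd17b3* RNA in 81.0% and 0.833%. These 10 genes chose the members and so cannot check the label. It is read below from Sertoli genes that the ranking did not use. Those lists were chosen with earlier results of these data known, so they are not an independent check.

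Markers of other testis cells were not at 0. The germ list (10 genes) summed to 42.6 CPM in members, 471 outside and 2173 in the germ set, and 286 members had no UMI of it. The Leydig list (5 genes, among them *Cyp17a1*) summed to 312 CPM in members, 847 outside and 5289 in the 599 barcodes richest in it, and to 192 in the germ set. The interstitial list (5 genes, among them *Pdgfra*, *Tcf21* and *Nr2f2*) summed to 165 CPM in members and 1032 outside, with 121 in the germ set. Germ cells should lack the Leydig and interstitial lists, and for both the members stood above the germ set. Single members reached 3610 CPM of the Leydig list and 1762 of the interstitial list. Scrublet put 15 members (3.75%) among the highest 6% of its doublet scores, where tied scores brought the share to 5.51% of all 7492. Of the genes with enough UMIs, 4 of 5 endothelial, 3 of 5 immune, 5 of 6 erythroid, 3 of 3 mesonephric and 2 of 4 surface epithelium genes were at least 2-fold lower in members than outside, and 0 were at least 2-fold higher, against 23.4% lower and 8.73% higher among all genes. The summed immune list was nonetheless at 34.8 CPM in members and 37.4 outside, a ratio of 0.931 (0.774 to 1.11), and at 17.8 in the germ set, 14.51 in the Leydig set and 13.7 in the interstitial set. The summed surface epithelium list was at 98.9 in members and 117.5 outside, a ratio of 0.842 (0.756 to 0.934). Of 4 markers of supporting-like cells, *Pax2* and *Lgr5* were at least 2-fold higher, *Igfbp3* at least 2-fold lower and *Pax8* in between. The part of other cells in the results below was not tested.

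RNA of other Sertoli genes was then compared. Lists held 36 genes known from Sertoli cells that the ranking did not use, as transcription factors, signals and other enriched genes. They were chosen with earlier results of these data known, so the values below are a description. Together they were at 13954 CPM in members and 4631 outside, a ratio of 3.01 (2.99 to 3.04). The genes did not weigh equally in this sum, and *Erbb4* alone gave 4730 CPM of it in members and 342 outside. Of the 34 genes with at least 100 UMIs over both groups, 22 were at least 2-fold higher in members and 6 at least 2-fold lower. Among all 15216 genes with as many UMIs, 8.73% were at least 2-fold higher and 23.4% at least 2-fold lower. The median log2 ratio was 1.69 over the 34 genes and -0.14 over all 15216.

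**Figure D1:**
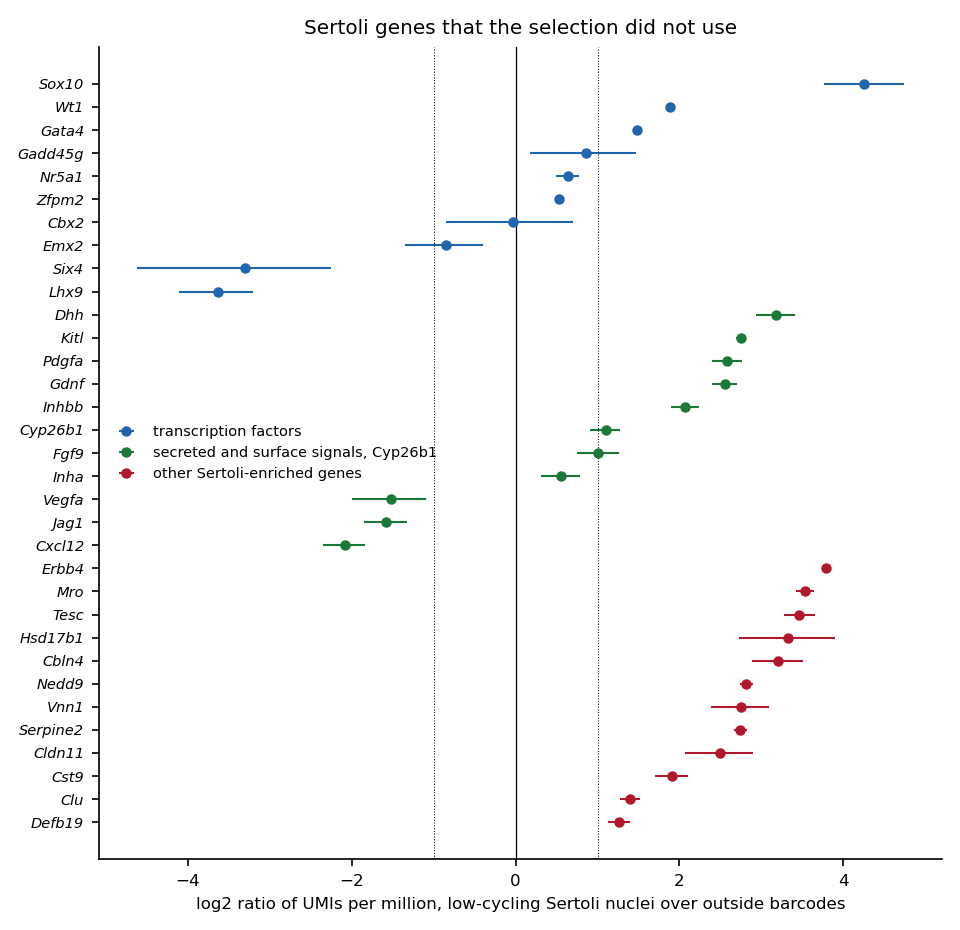
Each point is the log2 ratio of CPM between the 400 low-cycling Sertoli nuclei and the 6892 outside barcodes for 1 Sertoli gene that the ranking did not use, with its counting interval; dotted lines mark 2-fold. All 12 genes of the third list lie right of the upper dotted line, while of the genes drawn *Lhx9*, *Six4*, *Cxcl12*, *Jag1* and *Vegfa* lie left of the lower one.

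Of the transcription factors, 3 of 11 were at least 2-fold higher, 3 at least 2-fold lower and 5 in between. Among all genes 8.73% were higher and 23.4% lower, so the lower count was near the share of all genes. *Wt1*, needed for the gonad to form and for Sertoli cells to persist, was at 873 CPM (843 to 903) in members, 761.8 in the other 200, 235 outside and 24.7 in the germ set. *Gata4*, a GATA factor of all gonadal somatic cells, was at 1456 in members, 522 outside and 43.7 in the germ set, and every member held at least 1 UMI of it. *Sox10*, a SOX gene related to *Sox9* and *Sox8*, was low but 19-fold higher (13.5 to 26.6), at 19.3 CPM in members and 1.02 outside. *Nr5a1* was at 123 in members and 78.8 outside, and at 427 in the Leydig set. *Lhx9*, a factor of the early gonad and later of interstitial cells, was at 11.5 CPM in members against 143 outside and 335 in the interstitial set. *Six4*, which acts upstream of *Sry*, was at 1.88 CPM in members and 18.5 outside. *Sry* itself had no UMI in any group, which allows up to 0.804 CPM in members.

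Of 11 genes for signals, 7 were at least 2-fold higher, 3 at least 2-fold lower and *Inha*, the inhibin alpha subunit, in between. Among all genes 8.73% were higher and 23.4% lower, so the lower count was near the share of all genes. *Dhh*, the hedgehog ligand that Sertoli cells send to the interstitium, was at 56.3 CPM (48.9 to 64.4) in members and 6.23 outside, 9.03-fold higher. *Kitl*, the ligand of KIT on germ cells, was at 906 in members and 135 outside. *Gdnf*, a growth factor for germ cells, was at 124 in members, 175 in the other 200 and 21.2 outside. *Pdgfa* was at 87.1 and 14.52, and *Inhbb*, a subunit of activin B, at 93.5 and 22.3. *Fgf9*, which maintains *Sox9* in the early testis, was at 38.6 in members, 19.8 in the other 200 and 19.2 outside. *Cyp26b1*, whose enzyme breaks down retinoic acid, was at 72.1 in members and 33.7 outside, but at 119 in the Leydig set. The 3 lower genes were *Cxcl12* (35.4 against 150), *Jag1* (32.7 against 97.9) and *Vegfa* (11.5 against 33.1), and each was higher in the Leydig or interstitial set than in members.

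All 12 of the other Sertoli-enriched genes were at least 2-fold higher, against 8.73% of all genes, with a median log2 ratio of 2.78. *Erbb4*, a receptor of neuregulins, was at 4730 CPM (4661 to 4801) in members, 4518 in the other 200, 342 outside and 47.0 in the germ set. *Mro* was at 299 in members and 25.9 outside, *Nedd9* at 467 and 66.3, and *Serpine2*, a protease inhibitor, at 476 and 71.1. *Tesc*, for a calcium-binding protein, was 11.0-fold higher, at 95.7 and 8.69. The ratio was smaller for *Clu* (2.63) and *Defb19* (2.40), for a secreted chaperone and a defensin, whose RNA stood at 39.2 and 35.3 CPM in the germ set.

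After thinning each nucleus to 2000 UMIs, *Erbb4* was found in 98.25% of members and 5.17% of the germ set, *Gata4* in 89.5% and 5.50%, *Wt1* in 78.0% and 2.33%, and *Kitl* in 73.5% and 2.17%. The same shares were 11.0% and 0.667% for *Dhh* and 18.5% and 1.33% for *Amhr2*, a gene for the AMH receptor. Before thinning, with median depths of 8830.5 and 14349 UMIs, *Dhh* RNA was found in 38.75% of members and 3.5% of the germ set. Most members therefore carried RNA of *Erbb4*, *Gata4*, *Wt1* and *Kitl* at this depth.

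Receptors and structural genes were counted next. Of 17 receptor genes, 2 were at least 2-fold higher and 4 at least 2-fold lower, near the 8.73% and 23.4% of all genes. *Amhr2* was at 74.5 CPM in members and 12.0 outside, and *Thra*, a thyroid hormone receptor, at 171 and 73.9. The oestrogen receptor *Esr1* was at 61.1 in members and 346 outside. Of 22 junction and basement membrane genes with enough UMIs, 5 were at least 2-fold higher and 7 at least 2-fold lower, against the same shares. The 5 were *Itga6* (763 CPM in members, 127 outside), *Lama1* (541 and 172), *Cdh2* (481 and 155), *Gja1* (187 and 65.1) and *Ocln* (13.9 and 5.81), which code for a laminin receptor, a laminin chain, a cadherin, a gap junction protein and a tight junction protein. The collagen IV gene *Col4a1* was at 201 in members and 428 outside. Among the collagen IV chains, *Col4a3*, *Col4a4* and *Col4a6* were at 2.68 to 11.0 CPM in members and 22.6 to 72.8 outside.

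Genes of the ovarian supporting cell were read as a contrast. Of 7 pregranulosa genes with enough UMIs, 4 were at least 2-fold lower and 1 higher, against 23.4% and 8.73% of all genes. The list summed to 243 CPM in members and 119 outside, a ratio of 2.03 (1.90 to 2.18), of which *Lgr5* held 200 and 13.4. *Foxl2*, the factor that keeps ovarian identity, had a UMI in 0 of the 400 members, which allows a share with a detected UMI of up to 0.750% and does not limit the share that express it. *Wnt4* was at 9.11 CPM in members and 44.3 outside. *Lgr5*, a receptor of R-spondins, was the higher gene, 15-fold over outside (13.6 to 16.5), and at 168 in the other 200. After thinning it was found in 26.5% of members and 0.833% of the germ set. In the 59 barcodes richest in the supporting-like marker list, which holds *Lgr5* itself, it was at 165 CPM and found in 16.9%, a ratio of members over that set of 1.21 (0.964 to 1.54).

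The 15 genes with the highest ratio over outside were taken among genes outside the ranking with at least 100 UMIs over both groups and 50 CPM in the higher one. They were *Gm10863*, *Gm14344*, *Gm14226*, *Spata21*, *Dusp15*, *Lgr5*, *Cdh23*, *Dtna*, *Trank1*, *Gprin3*, *Erbb4*, *Ntn4*, *Gm45889*, *Fstl4* and *Wipf3*, with ratios of 18.3 to 13.2. Among them were 4 predicted gene models with no assigned name. *Gm14226* was at 531 CPM in members, 32.1 outside and 3.25 in the germ set, and after thinning was found in 59.0% of members and 0.333% of the germ set. *Dtna*, for a dystrobrevin, was at 1603 and 113, and *Trank1* at 1163 and 82.6. *Cdh23*, for a cadherin of the inner ear, was at 431 and 30.1. *Ntn4*, a netrin, was at 72.6 in members and 40.1 in the other 200. In the 59 barcodes richest in the supporting-like list, *Trank1* was at 364, *Dtna* at 185, *Cdh23* at 115, *Gm14226* at 64.4 and *Ntn4* at 22.1 CPM. Each of these was above its level outside and below that in members.

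All 10 of the lowest were higher in the germ set than in the members, the Leydig set or the interstitial set. *Sycp1* and *Sycp2*, for proteins of the synaptonemal complex, were at 3.48 and 0.536 CPM in members and 1409 and 510 in the germ set. *4930467D21Rik* had no UMI in members and 71.1 CPM outside, at least 88.5-fold lower. *Ankrd31*, *Gm14661*, *Cfap299*, *Ctnnd2*, *Ccdc172* and *Morc1* were at 0.268 to 2.14 CPM in members and 282 to 974 in the germ set. *Kif14*, a mitotic kinesin, was at 0.536 in members, 56.7 outside and 86.5 in the other 200.

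The second comparison was within the 600. Of 7506 genes with at least 100 UMIs over the 400 and the 200, 0.693% were at least 2-fold higher in the low-cycling members and 3.36% at least 2-fold lower. The Sertoli genes outside the ranking differed little, with a ratio of 1.04 (1.03 to 1.06), and 1 of 26 passed 2-fold upward and 0 downward. That 1 gene was *Vnn1*, for a pantetheinase, at 24.4 CPM in members and 10.3 in the other 200. The ranking genes for the cell cycle were, as chosen, far apart: *Mki67* was at 38.3 and 390, *Top2a* at 23.6 and 531.

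Cell cycle genes outside the ranking were split by phase. Of 40 genes of G2 and mitosis, 37 were at least 2-fold lower in members, against 3.36% of all genes. The 50 genes of the list together were at 0.221 of the level in the other 200 (0.214 to 0.227). *Nusap1* and *Kif11*, for proteins of the mitotic spindle, were at 3.75 and 9.38 CPM in members and 172 and 333 in the other 200. Genes of DNA replication differed less. Of 36 S-phase genes, 14 were at least 2-fold lower, against the same 3.36%, and 22 in between. The 43 together were at 0.5 (0.485 to 0.515). *Brip1* and *Clspn*, which act at replication forks, were at 32.4 and 15.5 in members and 235 and 86.1 in the other 200. The helicase genes *Mcm2*, *Mcm4* and *Mcm6* were at 18.0, 28.4 and 97.0 in members and 14.3, 29.8 and 92.1 in the other 200, each with an interval of the ratio that includes 1.

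Per nucleus, thinned to 2000 UMIs, members held a median of 3 UMIs of the G2/M list (0 to 15) and the other 200 a median of 14 (0 to 37). For the S-phase list the medians were 2.50 (0 to 24) and 7 (0 to 24). The members overlapped the other 200 in both lists, and 66 members (16.5%) were at or above the S-phase median of the other 200. These genes belong to the same RNA that chose the members, so their order is a description. The Leydig set, whose cells are known to divide rarely, had medians of 1 for the S-phase list and 2 for the G2/M list. The interstitial set had medians of 2 and 3, and the outside barcodes of 3 and 4, so the members' medians were not below those of the interstitial set. Over outside, 7 of 43 S-phase genes were at least 2-fold lower and 1 higher, and 41 of 50 G2/M genes were lower and 0 higher, against 23.4% and 8.73% of all genes. The S-phase list summed to 0.780 of its level outside (0.762 to 0.798) and the G2/M list to 0.422 (0.412 to 0.433).

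**Figure D2:**
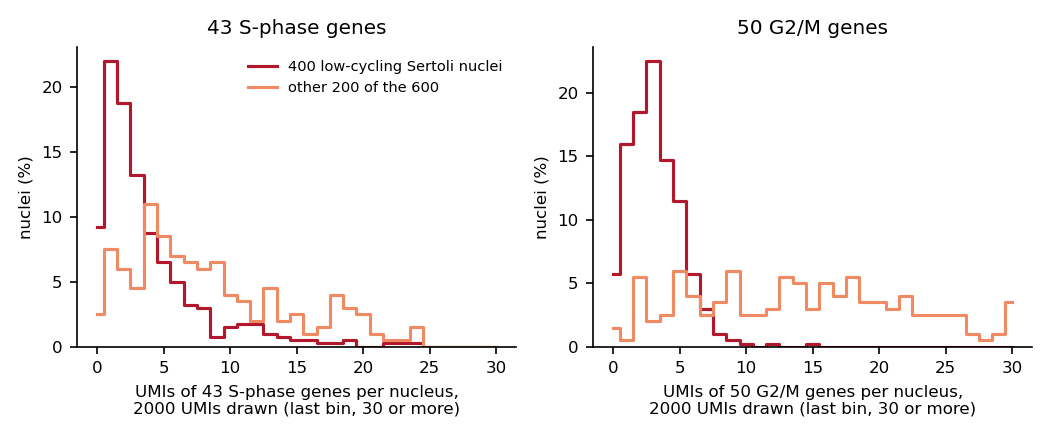
The share of nuclei (%) is plotted against the UMIs per nucleus of 43 S-phase genes (left) and 50 G2/M genes (right) after drawing 2000 UMIs per nucleus, for the 400 members and the other 200. The G2/M medians are 3 and 14 and the S-phase medians 2.50 and 7, and the groups overlap in both panels.

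Genes of cycle brakes and D-type cyclins were counted in both comparisons. Over the other 200, 0 of 6 with enough UMIs were at least 2-fold higher, against 0.693% of all genes, and 1, *Rbl1*, at least 2-fold lower, which says nothing particular to these genes. Over outside, 1 of 11 was at least 2-fold higher and 4 at least 2-fold lower, against 8.73% and 23.4% of all genes. The higher gene was *Ccnd2* for cyclin D2 at 153 CPM against 58.6, and the lower ones were *Ccnd1*, *Ccnd3*, *Cdkn1a* and *Cdkn2c*. *Cdkn1b* (p27) was at 15.01 in members, 21.4 in the other 200 and 16.8 outside, and *Cdkn1c* (p57) at 11.0, 11.1 and 19.6. *Cdkn1a* (p21) had 1 UMI in all members together. *Rbl1*, a retinoblastoma relative whose gene is a target of E2F factors, was at 47.7 in members and 106 in the other 200.

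Genes outside the cycle lists that were higher in the low-cycling nuclei were few and modest. Among genes with at least 50 CPM in the higher group, the 8 with the highest ratio were *Wwc1*, *Sulf1*, *Ank3*, *Slc25a21*, *Sntb1*, *Zbtb7c*, *Bmpr1b* and *Stat3*, with ratios of 2.77 to 2.08. Genes under that level were not ranked, among them *Vnn1* of the Sertoli-enriched list, at 24.4 CPM in members and 10.3 in the other 200, a ratio of 2.36 (1.51 to 3.81). *Wwc1*, for a regulator of the Hippo pathway, was at 57.1 CPM in members and 20.6 in the other 200. *Ank3*, for an ankyrin, was at 225 and 102, and after thinning was found in 28.5% of members and 19.5% of the other 200. *Slc25a21*, a mitochondrial carrier gene, was at 81.7 and 38.5, and after thinning was found in 6% of members and 2.5% of the other 200, so its UMIs came from few nuclei. *Sulf1*, at 53.3 and 22.2, was found after thinning in 4.75% of members and 3.5% of the other 200. *Bmpr1b* and *Sulf1* were lower in members than outside, at 68.6 and 53.3 against 118 and 194. In the 59 barcodes richest in the supporting-like list *Bmpr1b*, *Sulf1* and *Slc25a21* were at 2605, 1052 and 881 CPM. The ratio of members over the other 200 was 1.25 (1.12 to 1.40) for the supporting-like marker list. It was 1.23 (1.11 to 1.35) for the Leydig list and 1.15 (1.004 to 1.31) for the interstitial list. The germ, endothelial and mesonephric lists went the other way, at 0.716, 0.724 and 0.686. The part of other cells in these values was not tested. The 8 with the lowest ratio were *Kif14*, *Depdc1b*, *Iqgap3*, *Espl1*, *Kif4*, *Depdc1a*, *Cep55* and *Knstrn*, at 0.536 to 4.02 CPM in members. *Espl1*, for separase, which releases sister chromatids, was at 0.804 in members and 54.0 in the other 200.

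Variation among the members was read as the ratio of variance to mean. Over 4103 genes with a mean of at least 0.1 UMI after thinning, the median ratio of variance to mean was 1.11, where counts that vary by sampling alone give about 1. Among the Sertoli genes *Dhh* was at 0.974 and the ranking gene *Amh* at 1.02, below that median, and *Wt1* was at 1.35 and *Gata4* at 1.41, above it. The ranking gene *Fshr* was at 1.91, *Kitl* at 1.93, *Zfpm2* at 2.60 and *Erbb4* at 3.31. This ratio is larger for genes with more UMIs at equal relative spread, and the mean thinned UMIs were 0.115 for *Dhh*, 1.75 for *Wt1*, 6.87 for *Zfpm2* and 9.49 for *Erbb4*. As the variance beyond sampling divided by the squared mean, *Wt1* (0.199), *Zfpm2* (0.234) and *Erbb4* (0.243) were close to each other, *Kitl* was at 0.492 and *Fshr* at 1.38. After thinning, *Fshr* was found in 35.75% of members and 0.5% of the germ set.

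The 10 most variable genes were 3 mitochondrial genes and 7 others. *mt-Co3*, *mt-Co2* and *mt-Atp6* had ratios of variance to mean of 12.0, 9.21 and 8.69, beside a mitochondrial share that ran from 0.0960% to 9.74% over the members. *Adgrl3*, *Slit2*, *Robo2*, *Tshz2*, *Sdk1* and *Kcnip4* were each found in 24.0% of thinned members or fewer, and each was lower in members than outside. *Adgrl3*, for instance, was at 302 CPM in members and 5426 in the interstitial set, with up to 86 UMIs in 1 member and a median of 0. *Fam155a* differed from these, with RNA in 80.0% of thinned members, at 4048 CPM in members, 756 outside and 2721 in the Leydig set.

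Open chromatin of the same nuclei was not used in the ranking beyond the minimum of 500 cuts. All 9833 barcodes of the RNA library were found in the ATAC fragment list. The members held 587655 fragments at peaks, and 35.6% of their fragments lay at peaks against 37.5% outside. Of 70007 peaks with at least 50 fragments over both groups, 12.4% were at least 2-fold higher in members and 32.5% at least 2-fold lower. The calls rest on few fragments per peak, with a median of 4 in members. With at least 500 fragments over both groups, a limit chosen after the values were seen, 6 of 6613 peaks (0.0907%) were at least 2-fold higher. The outside barcodes held 14212816 fragments at peaks, so this limit keeps mainly peaks that are open outside. It cannot show how many of the calls rest on counting error.

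Promoters of the ranking genes were more open in the members. Of the 10 genes, 7 had a peak within 1 kb of an annotated start, and 4 of their 8 peaks were at least 2-fold higher, against 3.78% of the 14577 promoter peaks of all genes tested. Together the 8 peaks had 140 fragments in members and a ratio of 2.26 (1.89 to 2.69). *Amh* had 23 fragments in members, 25 in the other 200, 99 outside and 6 in the germ set, a ratio of 5.62 (3.41 to 8.91) over outside. *Adamts16* was at 5.74 (2.96 to 10.4), *Col9a3* at 4.29 (2.24 to 7.62) and *Aard* at 2.76 (1.80 to 4.10). *Sox9* differed, with 14 fragments in members and a ratio of 1.002 (0.542 to 1.70). The RNA of these genes chose the members and is not set against the promoter ratios.

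Promoters of the 36 other Sertoli genes were split by list. Over all 3 lists 13 of 43 promoter peaks were at least 2-fold higher and 3 lower, with a summed ratio of 1.24 (1.15 to 1.34). Of all 14577 promoter peaks, 3.78% were higher and 1684 lower. The signals had 4 of 15 higher and 1 lower, and the transcription factors 2 of 18 higher and 2 lower. Of 12 promoter peaks of the Sertoli-enriched list, 10 had enough fragments and 7 of these were at least 2-fold higher. The sum over all 12 had a ratio of 1.79 (1.497 to 2.12). *Mro* was at 4.11 (1.78 to 8.40) on 9 fragments, *Vnn1* at 3.56 and *Clu* at 2.68. The promoters of the signals summed to 1.20 (1.05 to 1.37), of which *Dhh* was at 3.93 (2.28 to 6.41), while *Kitl* was at 1.10 (0.634 to 1.78) with an RNA ratio of 6.71. The transcription factors summed to 1.09 (0.966 to 1.24), with *Wt1* at 2.30 (1.78 to 2.94) and *Gata4* at 0.751 (0.407 to 1.27). The interstitial list was at 0.512 (0.393 to 0.655), where *Tcf21* had 1 fragment in members against 278 outside. The pregranulosa list was at 0.741 (0.588 to 0.924). The germ list was at 0.844 (0.615 to 1.13) and the Leydig list, with 15 fragments in members, at 1.38 (0.764 to 2.33). The intervals of the germ and Leydig lists include 1. *Fst*, an ovarian gene, had 0 fragments in members, at least 2.25-fold lower than outside.

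RNA and promoter ratios were then set side by side for all genes. The 1189 genes with higher RNA and enough promoter fragments had a median log2 promoter ratio of 0.22, and 13.9% of them were at least 2-fold more open. The corresponding values were -0.05 and 1.26% for genes in between and -0.46 and 1.35% for genes with lower RNA. Within 250 bp of the start, cuts per gene in members stood at 1.10 times the outside value for genes with higher RNA. They stood at 0.925 times for genes in between and at 0.746 times for genes with lower RNA. The promoter differences were thus smaller than the 2-fold that defines the RNA classes.

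**Figure D3:**
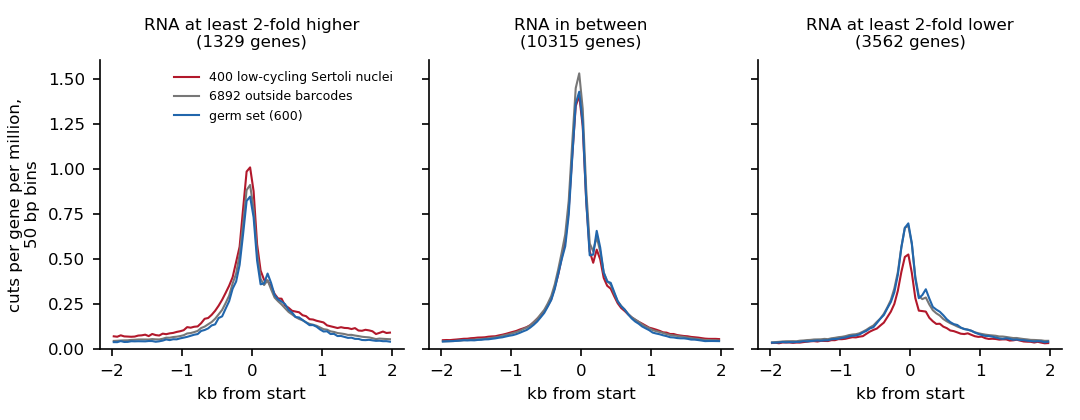
Transposase cuts per gene and per 1000000 cuts, in 50 bp bins, are plotted by distance in kb from the start of genes whose RNA was at least 2-fold higher (left), in between (middle) or at least 2-fold lower (right) in members than outside. At the start the members lie above the outside barcodes on the left (1.10 times within 250 bp). They lie below them in the middle (0.925 times) and on the right (0.746 times), and the 3 panels share 1 scale.

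Few of the peaks with the highest ratio lay within 1 kb of a start. Among the 500 peaks with the highest ratio (7.42 to 20.8), 1.60% were within 1 kb of a coding start, against 21.5% of all 70007, and their median of member fragments was 17. The nearest coding gene was one with RNA at least 2-fold higher for 32.6% of the 500, against 9.85% of all peaks. It was one with lower RNA for 7.60% and 23.8%. The 500 lowest peaks all had 0 fragments in members, and their nearest gene had lower RNA for 42.2%. Few of these lay near a start either, with 4% within 1 kb of a coding start. The median distance to a coding start was 23804 bp for the 500 highest, 58547.5 bp for the 500 lowest and 19184 bp for all. Of the 500 highest, 327 had under 50 fragments outside and passed the limit only with the members' own fragments. With the limit set on the outside fragments alone, chosen after the values were seen, 67015 peaks were left and 173 of the 500 stayed among the highest. The 500 highest of these (5.63 to 15.1) were within 1 kb of a coding start for 2.8%, against 22.3% of all 67015. Their median distance to a coding start was 18130 bp, against 18532 bp. Their nearest gene had higher RNA for 37.2%, against 9.65%, and lower RNA for 7.60%, against 24.0%.

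With the limit over both groups, the highest peak lay in *Arhgap31* at chr16:38620519-38621393 (GRCm38), over an exon of this gene. It had 25 fragments in members, 11 in the other 200, 29 outside and 0 in the germ set. The ratio over outside was 20.8 (11.7 to 36.9). The second, at chr2:180603485-180604406 over an exon of the ranking gene *Col9a3*, 5724 bp from its nearest coding start, had 31 fragments in members, 39 outside and 3 in the germ set, a ratio of 19.2 (11.6 to 31.6). The third lay in an intron of *Sema5a* (22 and 29 fragments), the fourth between genes (21 and 33) and the fifth in an intron of *Pdia5* (31 and 49). All 5 had under 50 fragments outside and passed the limit only with the members' own fragments. With the limit on outside fragments alone, the highest ratio of any peak was 15.1. A peak in an intron of *Nr6a1*, 20387 bp from the *Nr5a1* start at chr2:38734488-38735369, was singled out after its values were seen. It had 71 fragments in members and 127 outside, a ratio of 13.5 (9.97 to 18.2). The 3 lowest peaks, in *Hmcn2*, near *Prdm11* and in *Gabrb2*, had 0 fragments in members and 420, 398 and 381 outside.

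The *Sox9* gene has long-range enhancers in the gene desert upstream, some of which act in the testis. In the 1000 kb before its start, without the nearest 1 kb, there were 26 peaks, of which 14 had enough fragments. Of these 5 were at least 2-fold higher in members and 6 at least 2-fold lower, against 12.4% and 32.5% of all peaks. The 3 named below had 38, 41 and 47 fragments outside, so they passed the limit only with the members' own fragments. The count with the limit on outside fragments alone was not made. The highest lay 11.5 kb upstream at chr11:112770298-112771064, outside coding genes but inside the annotated gene *BC006965*, with 20 fragments in members, 15 in the other 200, 38 outside and 0 in the germ set, a ratio of 12.7 (7.02 to 22.4). The next were 436 kb upstream at chr11:112345619-112346429 (12 and 41 fragments, 7.08) and 790 kb upstream at chr11:111991842-111992714 (10 and 47, 5.15). For all 3 the value in the other 200 was close to that in the members, with intervals of the ratio that include 1.

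Cuts in 5 kb bins of the same stretch, singled out after the values were seen, gave the most member cuts beyond 5 kb at 10 to 15 kb upstream, at 18.2 cuts per 1000000 in members, 21 in the other 200 and 2.9 outside. The bin at 560 to 565 kb upstream had 30 cuts in members, or 9.08 per 1000000, against 1.12 outside, a ratio of 8.11 (5.16 to 12.4). In the germ set it had 2 cuts, in the Leydig set 2 and in the interstitial set 6.

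**Figure D4:**
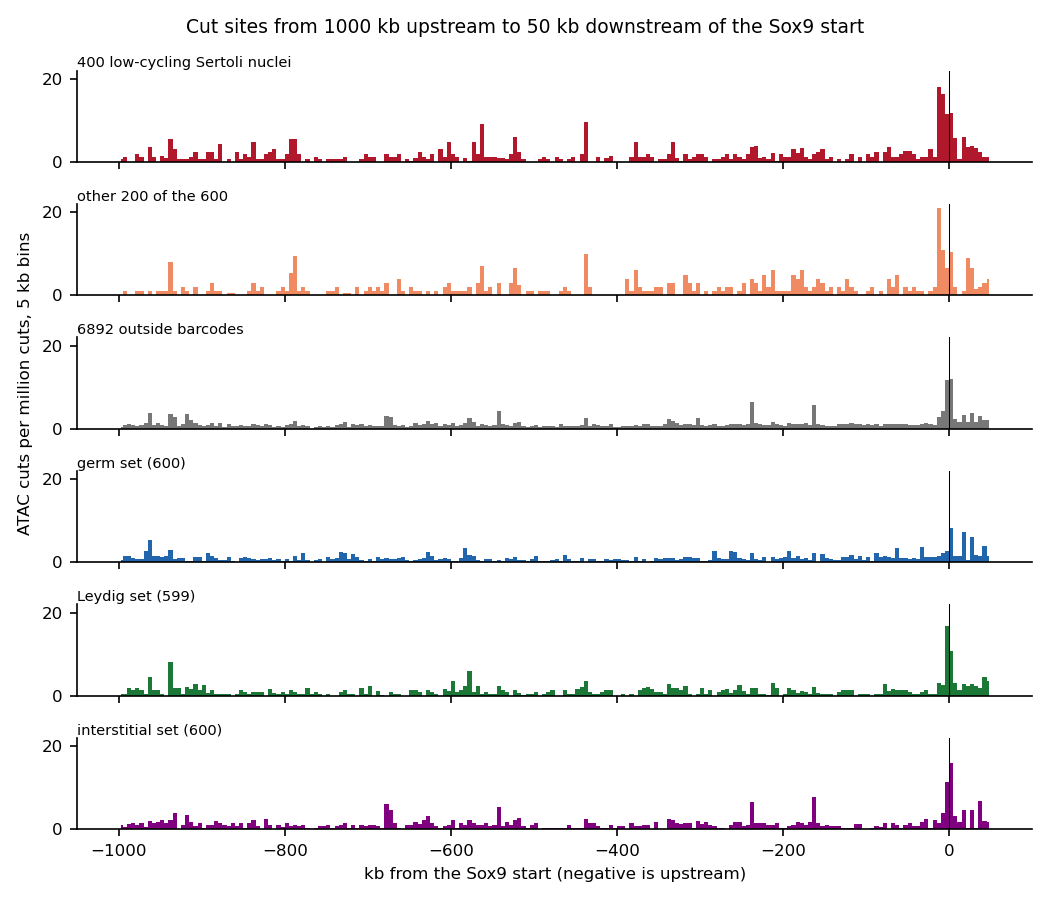
ATAC cuts per 1000000 in 5 kb bins are plotted by distance in kb from the *Sox9* start, upstream to the left, for the members, the other 200, the outside barcodes and the germ, Leydig and interstitial sets, all on 1 scale. The members and the other 200 have bins at 10 to 15, 435 to 440 and 560 to 565 kb upstream that are lower in the other sets (18.2, 9.69 and 9.08 cuts per 1000000 in members, 2.9, 2.56 and 1.12 outside).

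The central 300 bases of 4 of these peaks are shown as examples that hold letters searched for in all peaks. Capitals mark CAAGGTCA, the core that NR5A1 binds, and AACAATG, a SOX core, on either strand (TGACCTTG and CATTGTT in reverse).
*Arhgap31* peak, chr16:38620806-38621105, plus strand: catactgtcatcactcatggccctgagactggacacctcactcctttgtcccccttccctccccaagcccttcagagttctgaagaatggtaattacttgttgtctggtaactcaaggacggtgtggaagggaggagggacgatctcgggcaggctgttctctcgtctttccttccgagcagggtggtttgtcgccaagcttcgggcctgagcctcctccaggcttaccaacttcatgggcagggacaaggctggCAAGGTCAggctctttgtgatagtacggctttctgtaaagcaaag
*Col9a3* peak, chr2:180603796-180604095, plus strand: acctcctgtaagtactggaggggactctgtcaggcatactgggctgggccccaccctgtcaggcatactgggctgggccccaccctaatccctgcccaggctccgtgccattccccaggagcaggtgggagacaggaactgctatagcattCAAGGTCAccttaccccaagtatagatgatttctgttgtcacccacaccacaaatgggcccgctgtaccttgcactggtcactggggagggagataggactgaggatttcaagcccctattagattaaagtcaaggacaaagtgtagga
*Sox9* peak 11.5 kb upstream, chr11:112770531-112770830, plus strand: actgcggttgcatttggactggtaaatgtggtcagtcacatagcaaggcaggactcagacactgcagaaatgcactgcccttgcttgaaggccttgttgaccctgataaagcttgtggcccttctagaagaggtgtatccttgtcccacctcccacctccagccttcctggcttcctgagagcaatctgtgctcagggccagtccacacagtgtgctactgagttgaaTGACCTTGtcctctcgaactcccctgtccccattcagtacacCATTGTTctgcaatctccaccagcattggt
*Sox9* peak 436 kb upstream, chr11:112345874-112346173, plus strand: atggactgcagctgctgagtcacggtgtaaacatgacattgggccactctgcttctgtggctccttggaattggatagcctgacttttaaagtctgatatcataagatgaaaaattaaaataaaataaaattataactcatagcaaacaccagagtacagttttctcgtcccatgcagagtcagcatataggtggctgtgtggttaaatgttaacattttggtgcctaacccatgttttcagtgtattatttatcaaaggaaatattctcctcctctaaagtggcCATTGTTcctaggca
The first 2 hold the NR5A1 letters once, the third holds both, and the fourth holds the SOX letters once. The window of the peak 790 kb upstream of *Sox9*, not shown, also holds the NR5A1 letters once. The windows of the peaks in *Sema5a*, *Pdia5* and *Nr6a1* and of the fourth highest peak held neither.

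Across peaks, the NR5A1 letters were found in 24.0% of the 500 highest (20.3 to 28.0), 5.50% of all and 3.40% of the 500 lowest. The SOX letters were found in 11.0% (8.39 to 14.1), 3.26% and 2.8%. Those of DMRT1 (TACATTGT, which overlaps the reversed SOX letters) were found in 2.40%, 0.693% and 0.400%, and 5 of the 500 held both. The core of the GATA factors, searched as the letters AGATAAG, was found in 11.6%, 4.93% and 6.60%. That of the TEAD factors, searched as ACATTCC, was found in 8.60%, 5.65% and 4.60%. AP-1 (TGAGTCA) was found in 7.40%, 5.25% and 6.2%. CTCF (AGGGGGC) went the other way, with 5.80%, 11.2% and 7.2%. Among peaks over 1 kb from a coding start, the NR5A1 letters were in 23.8% of the highest against 6.76% of all, and the SOX letters in 11.0% against 3.82%. Mean GC content there was 50.04% and 50.3%. With the limit of 50 fragments on the outside alone, the 500 highest held the NR5A1 letters in 23.6% (19.9 to 27.6) against 5.23% of the 66991 on the chromosomes read, and the SOX letters in 6.60% (4.59 to 9.14) against 3.13%. Under that limit the GATA letters were in 10.8% against 4.80%, those of DMRT1 in 1.40% against 0.636% and those of CTCF in 6.4% against 11.4%. A match describes the letters in the window and not binding.

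**Figure D5:**
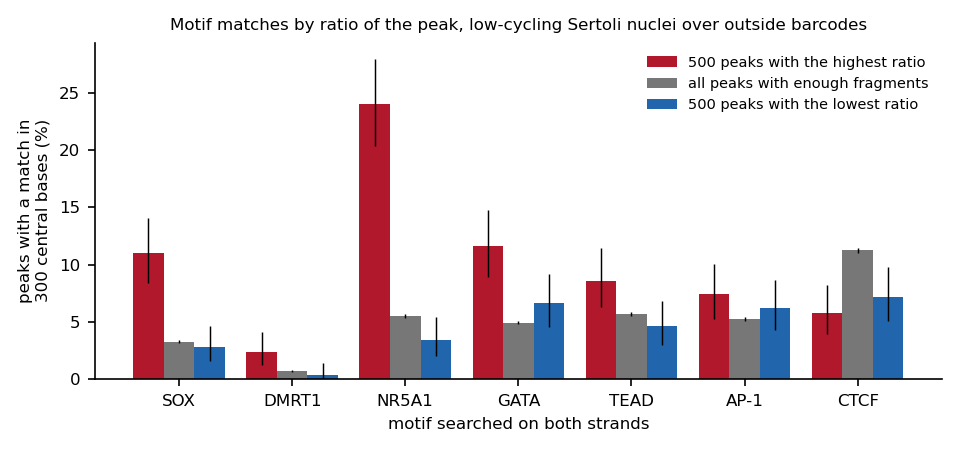
Bars give the share of peaks (%) with a match to each motif in the central 300 bases, for the 500 peaks with the highest ratio of members over outside, all peaks with enough fragments and the 500 with the lowest, with exact binomial intervals. Among the bars drawn, NR5A1 (24.0% against 5.50%) and SOX (11.0% against 3.26%) stand furthest above all peaks in percentage points. CTCF stands below (5.80% against 11.2%). With the limit on outside fragments alone, not drawn, GATA (10.8% against 4.80%) stands further above all peaks than SOX (6.60% against 3.13%).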

How the data were processed

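One library of polyadenylated RNA and 1 of transposase-accessible DNA were made from the same frozen E14.5 testis nuclei. The authors ran Cell Ranger ARC 2.0.1 on the mm10 build, and deposited a matrix of raw counts per barcode (32285 genes, 109215 peaks) and a fragment list. The deposited matrix precedes their removal of doublets, free RNA and low-quality nuclei, so none of these steps is in the values here. The deposited counts are whole numbers with no normalization.

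Members were ranked with numpy 2.4.6, scipy 1.17.1 and pandas 2.3.3 in Python 3.11.15. UMIs were summed over the nuclei of a set and given per 1000000 (CPM). Levels have exact Poisson intervals, ratios exact conditional binomial intervals and shares Clopper-Pearson intervals, at 95%. Peak values are cut sites, of which 87.1% of those above 0 were even, and were halved and rounded up to fragments. Fragments are given per 1000000 at peaks. A ratio past 2-fold was counted for genes with at least 100 UMIs and peaks with at least 50 fragments over both groups. Shares of nuclei were compared after thinning to 2000 UMIs. A value of 0 was bounded by 3 counts, or 0.804 CPM in members. Germ, Leydig and interstitial sets were the 600, 599 and 600 outside barcodes with the highest share of each marker list, and are ranges of a score and not cell types. A promoter was a peak within 1 kb of an annotated start. Scrublet, in scanpy 1.11.5, marked doublet scores and removed none. Sequences were read from GRCm38 with pysam 0.24.0. The counting code was tested on simulated data.

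Genes were named by a rule: those with the highest level or the largest ratio either way in each list, the 15 highest and 10 lowest genes, the 10 most variable genes, and the 5 highest and 3 lowest peaks. Other listed genes, among them those near the outside level, were named after their values were seen. The members and lists were chosen with earlier results of these data known. With 1 library per assay, depth was 58448458 fragments, and no p-value was computed. Some genes of the lists are counted but not reported here singly.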

Additional observations from a re-analysis of the deposited data

How the results depend on the processing

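Of 86 alternative values, 69 moved by less than their interval or stayed within 1.5 times the count and 17 moved further. A change of direction was defined for ratios only and not for counts of genes or peaks, and 0 ratios changed direction. The RNA ratio of the Sertoli genes over outside (3.01) was 2.93 with 300 of the first 450 nuclei, 3.08 with 500 of the first 750, 2.87 with nuclei weighted equally, 3.11 without high Scrublet scores and 3.45 without the next 600 ranks in the outside set. Over the other 200 (1.04) it was 1.03 with 300 of 450 and 1.02 with at most 25000 UMIs. The cell cycle ratio over the other 200 (0.318) was 0.330 with 500 of 750 and 0.311 with equal weights. Genes at least 2-fold lower (3563) numbered 5509 with at least 20 UMIs and 1510 with at least 1000, where 666 genes were higher in place of 1329. Peaks at least 2-fold higher (8683) numbered 16068 on cut sites, 2254 with at least 100 fragments and 6 with at least 500, and those lower (22742) numbered 9576 and 278 at the last 2 limits. With at least 50 fragments outside, peaks higher numbered 6835 of 67015. This limit and those of 1000 UMIs and 500 fragments were chosen after seeing the data. Promoter ratios ranged from 1.21 to 1.32 for the Sertoli genes and from 2.24 to 2.48 for the ranking genes. No paired analysis was possible because each assay had 1 library. Counts of fragments at single peaks, often under 30 in members, limit the chromatin values.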

Other observations

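Of the 36 Sertoli genes outside the ranking, 32 had a promoter peak. Among these, intervals of the ratio between the members and the other 200 excluded 1 for *Mro*, *Cst9*, *Nedd9* and *Vegfa*. These genes were singled out after the values were seen. The intervals were not corrected for the number of genes read, so some can exclude 1 by counting error alone. *Mro* had 9 promoter fragments in members and 24 in the other 200, a ratio of 0.233 (0.0953 to 0.519), with an RNA ratio of 1.09. *Cst9* had 8 and 18 fragments, a ratio of 0.276 (0.104 to 0.667), with an RNA ratio of 1.14. *Nedd9* had 20 and 31, a ratio of 0.401 (0.216 to 0.726), with an RNA ratio of 1.17. *Vegfa* went the other way with 38 and 12, a ratio of 1.97 (1.006 to 4.13), with an RNA ratio of 1.32 (0.772 to 2.32). The counts are small, under 50 fragments over both groups for *Mro* and *Cst9*, and no test was possible.

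The promoters of the 7 cycling genes used in the ranking had a ratio over outside of 0.916 (0.777 to 1.07) in the members. The RNA of these 7 genes chose the members and is not set against it. Over all 93 S-phase and G2/M genes the promoter ratio was 0.967 (0.931 to 1.004).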
